A study of Mus musculus with 9 samples.

Results

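Collagen VI and the fibril-associated collagens were followed through the 9 genes Col6a1, Col6a2, Col6a3, Col9a1, Col9a2, Col9a3, Col12a1, Col14a1 and Col16a1, out of 35275 genes in the count table. They were chosen by symbol, and all 9 were found and had enough counts to be tested. RNA had been sequenced in bulk from anterior segments of newborn mouse eyes at postnatal day 0 (cornea, iris, ciliary body and drainage structures, with the lens taken out). There were 6 libraries heterozygous for the G1344D missense allele of Col4a1 (Col4a1+/G1344D, called mutant), and 3 libraries that were Col4a1+/+ (called wildtype). Each library pooled 4 eyes from 2 mice, so the spread behind each p-value is that between pools. The comparison asks how the allele, which changes a glycine of the type IV collagen alpha-1 chain, is accompanied by differences in gene expression at birth.

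Collagen VI is built from an alpha-1, an alpha-2 and an alpha-3 chain, which join inside the cell before the molecules are secreted and linked into beaded microfilaments. These filaments lie between the large fibrils and the basement membranes, and they are abundant in the corneal stroma. Collagens IX, XII, XIV and XVI belong to the fibril-associated collagens, whose interrupted triple helices do not form fibrils of their own. Collagen IX, also made of alpha-1, alpha-2 and alpha-3 chains, sits on type II collagen fibrils in cartilage and vitreous, and collagens XII and XIV, each made of a single kind of chain, sit on type I collagen fibrils in tendon, skin and cornea.

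Col6a1 and Col6a2 lie 85161 bases apart on chromosome 10 of GRCm38, both on the minus strand, while Col6a3 lies on chromosome 1. The bases just upstream of the annotated exons are shown because Col6a1 and Col6a2 varied together across libraries while Col6a3 differed from them in proportion, and because Col9a1 has 2 starts. The sequences come from RefSeq promoter windows of GRCm38.p6, read 5′ to 3′ on the gene's strand, with annotated exon bases left out. Windows were read for Col6a1, Col6a2, Col6a3 and Col9a1. Another window of Col6a2 left 24 bases before the exons, which lie within the Col6a2 stretch shown. Capitals mark GGGCGG, the GC box, or CAGAC, the core motif bound by SMAD proteins, on either strand, and the motifs do not overlap here. Positions are, in the order shown, chr10:76726169-76726294, chr10:76623631-76623880, chr1:90843972-90844221, chr1:24177360-24177609 and chr1:24194953-24195186, with the first 3 on the minus strand and the others on the plus strand.
Col6a1: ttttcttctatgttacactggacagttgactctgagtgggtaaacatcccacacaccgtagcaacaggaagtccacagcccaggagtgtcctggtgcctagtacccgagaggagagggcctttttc
Col6a2: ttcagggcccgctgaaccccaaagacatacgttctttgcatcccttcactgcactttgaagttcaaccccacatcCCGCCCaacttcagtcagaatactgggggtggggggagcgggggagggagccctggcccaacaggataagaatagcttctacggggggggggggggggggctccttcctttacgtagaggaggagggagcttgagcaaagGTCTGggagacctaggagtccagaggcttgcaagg
Col6a3: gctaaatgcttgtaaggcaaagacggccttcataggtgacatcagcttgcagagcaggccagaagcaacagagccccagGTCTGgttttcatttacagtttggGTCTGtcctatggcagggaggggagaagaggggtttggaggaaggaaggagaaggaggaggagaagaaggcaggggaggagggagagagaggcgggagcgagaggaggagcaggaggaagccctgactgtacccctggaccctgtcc
Col9a1, upstream start: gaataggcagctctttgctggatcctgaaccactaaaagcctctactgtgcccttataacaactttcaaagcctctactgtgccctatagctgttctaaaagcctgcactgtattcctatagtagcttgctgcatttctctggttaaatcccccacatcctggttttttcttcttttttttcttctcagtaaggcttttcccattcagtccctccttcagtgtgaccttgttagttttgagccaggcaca
Col9a1, downstream start: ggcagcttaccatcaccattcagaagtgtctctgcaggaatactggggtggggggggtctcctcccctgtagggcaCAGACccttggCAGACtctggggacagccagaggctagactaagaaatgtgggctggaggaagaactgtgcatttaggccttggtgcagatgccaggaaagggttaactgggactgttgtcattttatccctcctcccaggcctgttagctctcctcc
GGGCGG occurs on either strand in 32.7% of 32851 RefSeq mouse windows of 250 bases, CAGAC in 42.2% and TATAAA in 12.4%. The Col6a1 stretch, of 126 bases, and the downstream Col9a1 stretch, of 234 bases, are shorter than these windows, so the shares are not theirs. The Col6a2 stretch held 1 GC box and 1 CAGAC, the Col6a3 stretch and the downstream Col9a1 stretch held 2 CAGAC each, and the others held none. TATAAA was found in none of the 5. The downstream start of Col9a1 lies 17577 bases into the gene, in intron 6 of the longer transcript, and 31 of the 32 exons of the shorter transcript are identical to exons of the longer one. The shorter form lacks the amino-terminal domain and has been described in chick cornea and vitreous, while the longer form is that of cartilage. The gene counts pool both forms, so they cannot be told apart here.

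The counts summed to between 28440874 and 35306935 in mutant libraries and between 25995340 and 28356439 in wildtype libraries, and the 9 members took between 0.478% and 0.756% of them. Of 15825 genes tested, 3034 passed edgeR's quasi-likelihood test at an adjusted p under 0.05. The mutation is a missense change, so levels of Col4a1 do not check the labels. The gene for the corneal epithelial keratin, Krt12, chosen after its values were seen, was present at 224 ± 22.9 CPM in mutant and 226 ± 37.3 CPM in wildtype libraries (SD, n = 6 and 3). CPM is the count of a gene relative to the library's total on the usual CPM scale, after TMM scaling. The 13 lens markers summed to 211 to 233 CPM in mutant and 257 to 262 CPM in wildtype libraries, most of it Cryab (186 ± 10.6 CPM in mutant and 206 ± 5.22 CPM in wildtype), which other tissues also express. The lens crystallin gene Cryaa stood at 2.38 ± 0.51 CPM in mutant and 1.53 ± 0.38 CPM in wildtype libraries, and Cryga and Lim2 were at 0. The ranges of the lens marker sum did not overlap. Of 9 lens markers tested, 1 was called lower, with a median log2 fold change of -0.39. This was Bfsp2, at 32.5 ± 2.26 CPM in mutant and 42.5 ± 3.47 CPM in wildtype libraries (edgeR adjusted p = 0.00958). It was not called without wildtype 1 or with a trend of expression on exon length removed (edgeR adjusted p = 0.0879 and 0.172). Gm42418, a gene model that overlaps ribosomal RNA sequence, took 4.11% to 6.91% of the counts in 5 mutant libraries and wildtype 1, and 0.0663% to 0.0708% in mutant 2 and wildtype 2 and 3. In bulk tissue, fewer cells of a type and less RNA per cell cannot be told apart.

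Of the 9 members, 1 was called higher in mutants, Col12a1, and 1 lower, Col9a1, and 7 did not pass the test. Among all tested genes 9.70% were called higher and 9.47% lower, so the members' counts were close to the background. The median log2 fold change was -0.16 over the members and 0.00 over all tested genes. The same 2 members were those whose groups did not overlap, 1 higher and 1 lower, where 10.8% of all tested genes lay fully higher and 11.2% fully lower in mutants.

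**Figure D1:**
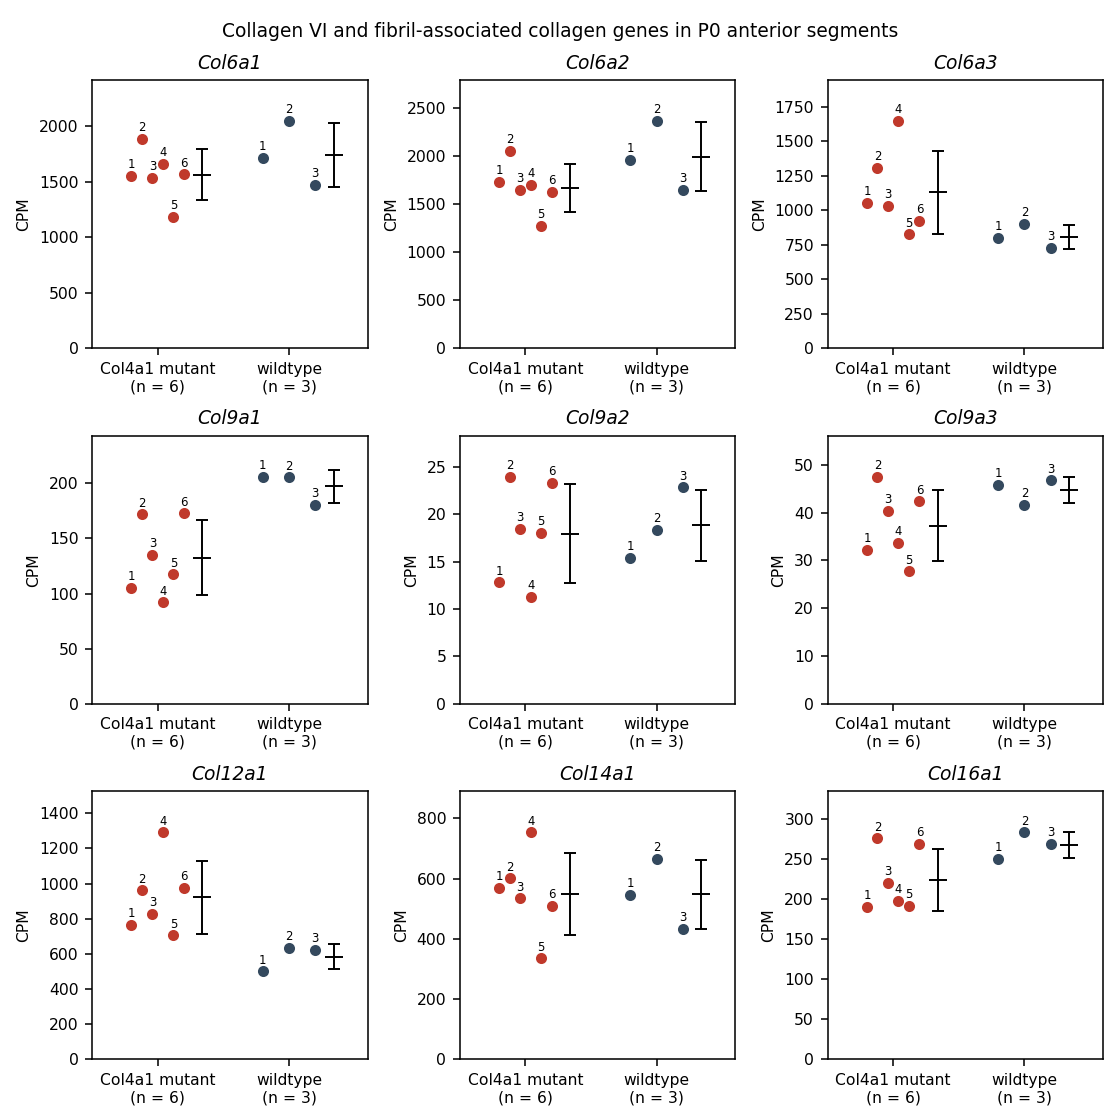
Level of each of the 9 members in every library, as CPM, with mutant libraries (n = 6) to the left of wildtype libraries (n = 3); numbered points are libraries and bars the group mean ± SD. The 6 mutant points lie above the 3 wildtype points for Col12a1 and below them for Col9a1, and the groups overlap for the other 7 genes.

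Per length of exon, collagen VI was the most abundant of the families. Col6a1 averaged 357 CPM per kb of exon in mutants and 398 in wildtype, and Col6a2 201 and 239. In mutants the order of levels then ran from Col6a3 (94.5 CPM per kb) through Col14a1 (78.5), Col12a1 (60.4), Col16a1 (33.2), Col9a1 (26.1) and Col9a3 (9.68) to Col9a2 (5.80). In wildtype it ran from Col14a1 (78.2) through Col6a3 (67.4), Col16a1 (39.6), Col9a1 (38.9), Col12a1 (38.4) and Col9a3 (11.6) to Col9a2 (6.09). Col12a1 thus stood above all 6 mutant values of Col16a1, with ranges apart, whereas in wildtype the ranges of Col16a1, Col9a1 and Col12a1 overlapped. The ranges of Col14a1 and Col6a3 overlapped in both groups, but within a library Col6a3 lay above Col14a1 in 6 of 6 mutants and below it in 3 of 3 wildtype libraries. The last count depends on the length used. With the longest annotated transcript, Col6a3 (71.75 CPM per kb) lay above Col14a1 (67.25) in wildtype 3 as well. Collagen VI chains join in equal parts, but levels per length depend on which exons are used: with the longest annotated transcript as the length, Col6a2 stood at 340 CPM per kb in mutants and 406 in wildtype, Col6a1 at 382 in mutants and 426 in wildtype, and Col6a3 at 112 in mutants and 79.8 in wildtype.

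**Figure D2:**
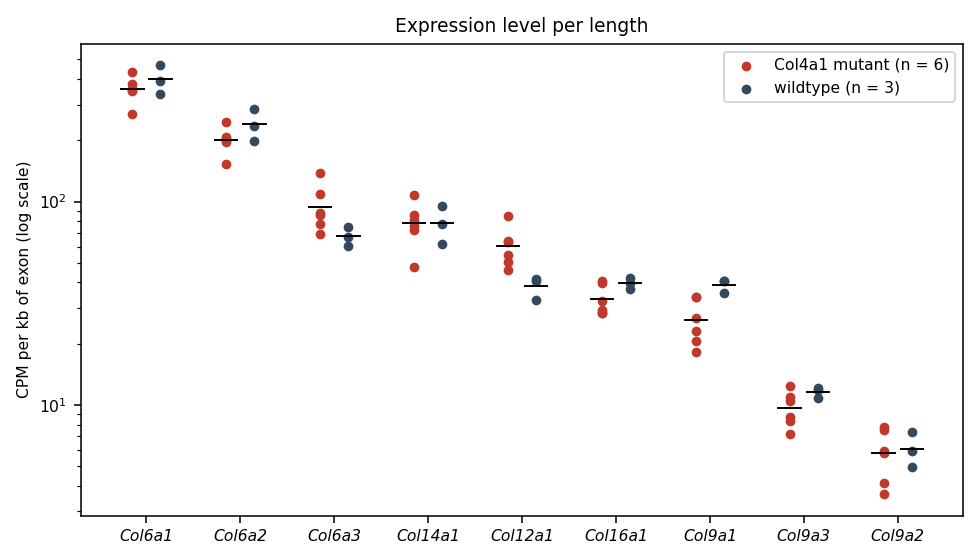
Level per length of exon of each member, in CPM per kb on a log axis, for mutant (n = 6) and wildtype (n = 3) libraries; points are libraries and lines the group means. Col6a1 and Col6a2 lead in both groups, and Col12a1 sits above Col16a1 and Col9a1 in mutants and level with them in wildtype.

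Among the chains of collagen VI none passed the test, but their proportions differed between the genotypes, with more Col6a3 for a given amount of Col6a1 or Col6a2 in mutants. Col6a1, on chromosome 10 from 76708792 to 76726168, encodes the alpha-1 chain and had 1182 CPM in the lowest mutant library, a median of 1561 and 1891 in the highest, against 1713, 2048 and 1474 CPM in wildtype libraries 1 to 3. Its mean was 1566 ± 229 CPM in mutants and 1745 ± 288 CPM in wildtype (SD, n = 6 and 3; log2 fold change -0.16, 95% interval -0.43 to 0.12, edgeR adjusted p = 0.43). The groups overlapped, with mutant 5 the lowest and wildtype 2 the highest library.

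Col6a2, for the alpha-2 chain, on chromosome 10 from 76595762 to 76623630, averaged 1671 ± 249 CPM in mutants and 1992 ± 357 CPM in wildtype (log2 fold change -0.25, interval -0.53 to 0.03, edgeR adjusted p = 0.192). Mutant 2, at 2053 CPM, lay between wildtype 2 at 2363 CPM and wildtype 1 at 1962 CPM, and the groups overlapped. Longer genes tended to be higher in mutants. With a smooth trend of expression on exon length removed from each library, Col6a2 was lower in mutants by a log2 fold change of -0.40 (edgeR adjusted p = 0.0392). That value rests on the 8326 bases of all its annotated exons, while its longest transcript has 4912 bases.

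Col6a3, on chromosome 1 from 90765923 to 90843971, encodes the large alpha-3 chain, whose carboxy-terminal end is cut off as the fragment endotrophin. It had 824 CPM in the lowest mutant library, a median of 1041 and 1645 in the highest, against 798, 898 and 725 CPM in wildtype libraries 1 to 3. Mutants 1, 2, 3, 4 and 6 lay above all wildtype libraries, and mutant 5 lay among them. The mean was 1130 ± 300 CPM in mutants and 807 ± 86.7 CPM in wildtype, a log2 fold change of 0.49 (SE 0.18, interval 0.11 to 0.86) that did not pass the test (edgeR adjusted p = 0.0654). It passed without mutant 5 (adjusted p = 0.0268) or mutant 6 (adjusted p = 0.0493), and with the length trend removed its log2 fold change was 0.25 (adjusted p = 0.274). Within the libraries rich in Gm42418 (5 mutants and wildtype 1) the difference was 0.41, and within the others (mutant 2 and wildtype 2 and 3) it was 0.70. Each of these has only 1 library in 1 of the groups.

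A ratio of CPM within a library does not depend on how the libraries are scaled. Such ratios were compared by an exact two-sided permutation test over 84 splits, whose smallest p is 0.0119, with Benjamini-Hochberg adjustment over 10 ratios. The Col6a3/Col6a1 ratio was 0.59 in the lowest mutant library, 0.684 in the median and 0.989 in the highest, against 0.466, 0.438 and 0.492 in wildtype libraries 1 to 3. All 6 mutant ratios lay above all 3 wildtype ratios, a 1.53-fold difference (log2 0.61, exact permutation p = 0.0119, adjusted p = 0.0397). The Col6a3/Col6a2 ratio was 0.568 to 0.968 in mutants with a median of 0.631, against 0.407, 0.38 and 0.439 in wildtype. This 1.63-fold difference again left no overlap between the groups (log2 0.70, exact permutation p = 0.0119, adjusted p = 0.0397). Of single tested genes, 10.8% lay fully higher and 11.2% fully lower in mutants. How often ratios of other gene pairs separate was not computed, for these ratios or those below.

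The Col6a2/Col6a1 ratio was 1.02 to 1.11 in mutants and 1.12 to 1.15 in wildtype, lower in every mutant library (log2 difference -0.09, exact permutation p = 0.0238, adjusted p = 0.0476). It passed when mutant 1 or 4 was left out and not when any of the other libraries was (adjusted p = 0.051 to 0.143, exact permutation). Mutant 4 had the highest Col6a3 ratios, and without it the log2 differences were 0.51 for Col6a3/Col6a1 and 0.60 for Col6a3/Col6a2 (adjusted p = 0.0446 each, exact permutation). With the length trend removed they were 0.40 and 0.64, and that of Col6a2/Col6a1 was -0.23 (adjusted p = 0.0476 each, exact permutation). The trend at Col6a3 was 0.22 on the log2 scale, against 0.02 at Col6a1 and 0.16 at Col6a2. At Col6a2 it rests on 8326 bases of annotated exons, while the longest transcript has 4912. Col9a1, with 5068 bases, had a trend of 0.05, so the values with Col6a2 depend on the length used. Within the libraries rich in Gm42418 (5 mutants and wildtype 1) the Col6a3/Col6a1 difference was 0.61, and within the others (mutant 2 and wildtype 2 and 3) it was 0.57. Without wildtype 1, 2 or 3 the adjusted p of both ratios was 0.051 to 0.119, and without mutant 3, 5 or 6 it was 0.0595 (exact permutation); fewer libraries leave fewer splits.

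**Figure D3:**
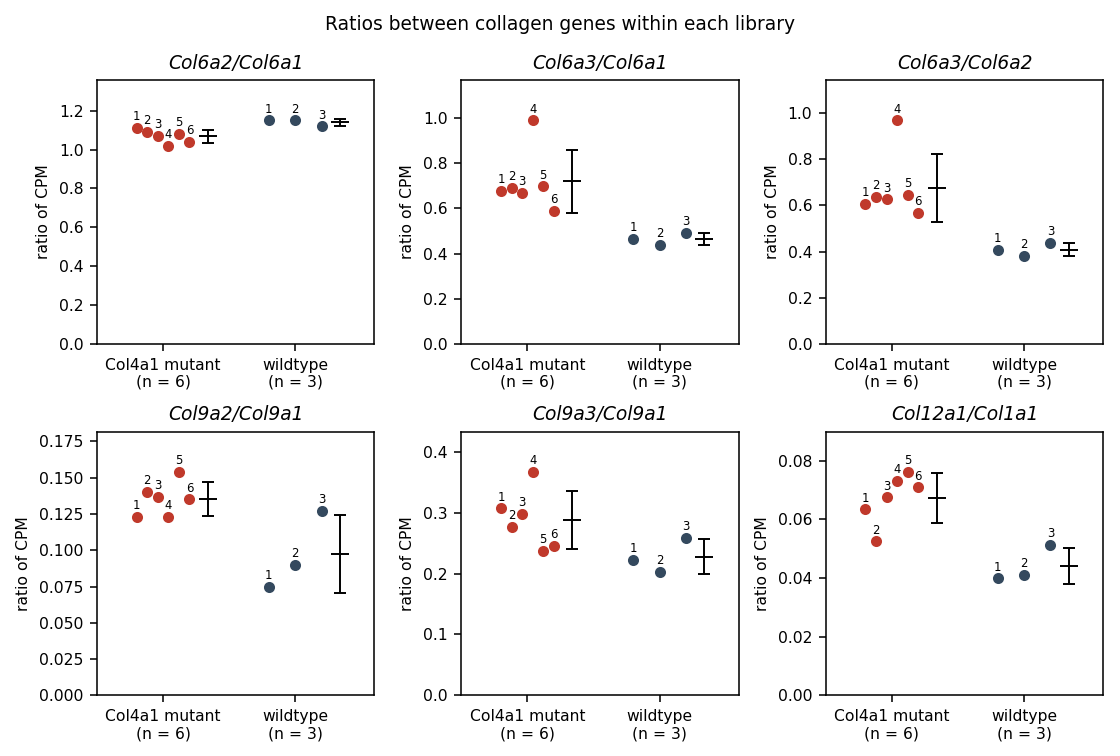
Ratio of CPM between collagen genes within each library, on linear axes from 0, with mutant (n = 6) left of wildtype (n = 3); numbered points are libraries and bars the group mean ± SD. Col6a3/Col6a1, Col6a3/Col6a2 and Col12a1/Col1a1 lie wholly higher in mutants, Col6a2/Col6a1 wholly lower, and the groups overlap for Col9a2/Col9a1 and Col9a3/Col9a1.

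Of the collagen IX genes, Col9a1, for the alpha-1 chain, was called lower in mutants. Col9a1, on the plus strand of chromosome 1 from 24177610 to 24252684, had 92.0 CPM in the lowest mutant library, a median of 126 and 173 in the highest, against 206, 205 and 180.3 CPM in wildtype libraries 1 to 3. All 6 mutant libraries lay below all 3 wildtype libraries, although the highest mutants came close to wildtype 3. The mean was 132 ± 34.1 CPM in mutants and 197 ± 14.7 CPM in wildtype, 1.49-fold lower in mutants (log2 fold change -0.58, SE 0.17, edgeR adjusted p = 0.0325).

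The Col9a1 call rested on single libraries. It was lost without wildtype 1, 2 or 3 or mutant 5 (adjusted p = 0.164, 0.093, 0.0529 and 0.0502, edgeR), with log2 fold changes of -0.54, -0.54, -0.63 and -0.54. It was also lost with the split on Gm42418 as a covariate (log2 fold change -0.48, adjusted p = 0.089), with the length trend removed (-0.62, adjusted p = 0.0771) and with no filter on low counts (-0.56, adjusted p = 0.119, all edgeR). Within the libraries rich in Gm42418 (5 mutants and wildtype 1) the difference was -0.76, and within the others (mutant 2 and wildtype 2 and 3) it was -0.16.

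Col9a2 and Col9a3 encode the alpha-2 and alpha-3 chains that join with alpha-1. Col9a2, on chromosome 4 from 121039385 to 121055322, averaged 18.0 ± 5.21 CPM in mutants and 18.9 ± 3.75 CPM in wildtype (log2 fold change -0.07, interval -0.52 to 0.38, edgeR adjusted p = 0.853). Its mutant libraries spanned 11.3 to 24.0 CPM and took in all 3 wildtype values, so the interval leaves room for a change in either direction. Col9a3, on chromosome 2 from 180597790 to 180622189, averaged 37.3 ± 7.35 CPM in mutants and 44.7 ± 2.74 CPM in wildtype (log2 fold change -0.26, interval -0.55 to 0.03, edgeR adjusted p = 0.192). It shares 234 exon bases with Tcfl5 on the opposite strand, and reads from there cannot be told apart because no source used here gives the strand setting of the counting. The difference of Col9a3 was -0.39 within the libraries rich in Gm42418 (5 mutants and wildtype 1). It was 0.11 within the others (mutant 2 and wildtype 2 and 3).

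The Col9a2/Col9a1 ratio was 0.123 to 0.154 in mutants, against 0.0749 to 0.127 in wildtype (log2 difference 0.51, exact permutation p = 0.0357, adjusted p = 0.051), so it did not pass. Neither did Col9a3/Col9a1 (0.33, adjusted p = 0.104) or Col9a3/Col9a2 (-0.18, adjusted p = 0.516; both by exact permutation). Col2a1, the gene of the fibril that collagen IX coats, was low at 8.49 ± 1.15 CPM in mutants and 7.39 ± 2.28 CPM in wildtype. The Col9a1/Col2a1 ratio was 10.2 to 21.3 in mutants, against 36.3, 30.8 and 18.0 in wildtype (log2 difference -0.84, exact permutation p = 0.0357, adjusted p = 0.051).

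Markers of tissues that could supply collagen IX were read beside it. The 16 cartilage markers summed to 90.5 to 115.8 CPM in mutants and 81.6 to 102.9 CPM in wildtype, with 2 of the 14 tested called higher (Col10a1 and Sox6) and 1 lower (Ucma), and Matn1 and Snorc too low to test. All 3 lost their calls without wildtype 1, and Ucma also without wildtype 3 or mutant 3 or 6. With the length trend removed Sox6 (adjusted p = 0.141) and Ucma (adjusted p = 0.0612) were not called (edgeR). The 11 markers of the ciliary margin and its non-pigmented epithelium summed to 1499 to 1596 CPM in mutants and 1527 to 1631 CPM in wildtype. Of these, 1 was called higher, the neural cadherin gene Cdh2, except without wildtype 1, against 2 by DESeq2 and 4 at an unadjusted p under 0.05 (edgeR). By edgeR and DESeq2 0 were called lower, with 0 at an unadjusted p under 0.05 (edgeR). With the length trend removed, 2 were called higher and 1 lower (edgeR). Of 12 neural retina markers 5 could be tested, Rcvrn was at 0, and 0 were called in either direction by edgeR, by DESeq2 or at an unadjusted p under 0.05 (edgeR). The part of these tissues in the Col9a1 difference was not tested.

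Col12a1 was the member called higher. It encodes the single chain of collagen XII, which bridges type I collagen fibrils to other matrix molecules, and lies on chromosome 9 from 79598991 to 79718831, minus strand. It had 705 CPM in the lowest mutant library, a median of 895 and 1291 in the highest, against 500.1, 634 and 621 CPM in wildtype libraries 1 to 3. Each mutant library lay above each wildtype library. The mean was 920.5 ± 210 CPM in mutants and 585 ± 73.7 CPM in wildtype, 1.57-fold higher (log2 fold change 0.65, SE 0.16, interval 0.32 to 0.99, edgeR adjusted p = 0.0109).

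The call was lost when wildtype 1 was left out (log2 fold change 0.55, edgeR adjusted p = 0.0963) and was kept without each of the other libraries. With 15228 bases of exon Col12a1 is longer than 97.7% of genes, and the length trend stood at 0.26 there. With the trend removed the log2 fold change was 0.39 (edgeR adjusted p = 0.0213), and with Gm42418 as a covariate it was 0.75 (adjusted p = 0.0208). Within the libraries rich in Gm42418 (5 mutants and wildtype 1) the difference was 0.83, and within the others (mutant 2 and wildtype 2 and 3) 0.61.

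Col14a1, on chromosome 15 from 55307750 to 55520803, encodes collagen XIV, which shares the domain plan of collagen XII and controls the lateral growth of fibrils. It averaged 550.5 ± 136 CPM in mutants and 548 ± 115 CPM in wildtype (log2 fold change 0.01, interval -0.41 to 0.43, edgeR adjusted p = 0.985). Mutant 5, at 335 CPM, was the lowest and mutant 4, at 754 CPM, the highest of all 9 libraries. The sign of this small value turned with the upper quartile or total counts as the scaling or the length trend removed (-0.03, -0.01 and -0.12), and without mutant 1, 2 or 4 or wildtype 3.

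Col12a1 was also higher relative to Col14a1 in mutants. The Col12a1/Col14a1 ratio was 1.34 to 2.10 in mutants with a median of 1.65, against 0.917, 0.954 and 1.43 in wildtype (log2 difference 0.65, exact permutation p = 0.0238, adjusted p = 0.0476). The ranges overlapped through mutant 1 and wildtype 3, and the adjusted p was 0.0794 with the length trend removed. It also did not pass when any library but mutant 1 was left out (0.051 to 0.143, exact permutation). Against Col1a1, the main gene of the fibril itself, Col12a1 was 0.0525 to 0.0762 in mutants and 0.0399, 0.041 and 0.0512 in wildtype, with no overlap (log2 difference 0.61, exact permutation p = 0.0119, adjusted p = 0.0397). Within the libraries rich in Gm42418 (5 mutants and wildtype 1) this difference was 0.81, and within the others (mutant 2 and wildtype 2 and 3) 0.20. The Col12a1/Col1a1 ratio did not pass without mutant 3, 5 or 6 or any of the wildtype libraries (adjusted p = 0.051 to 0.119, exact permutation). Col14a1/Col1a1 was 0.0329 to 0.0471 in mutants and 0.0358 to 0.0436 in wildtype (-0.04, adjusted p = 0.833, exact permutation).

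Col16a1, on chromosome 4 from 130047840 to 130099283, encodes collagen XVI, a minor fibril-associated collagen of skin and cartilage. It had 190.1 CPM in the lowest mutant library, a median of 209 and 276 in the highest, against 250.3, 284 and 269 CPM in wildtype libraries 1 to 3. Mutants 2 and 6 lay among the wildtype libraries and the other 4 lay below them. The mean was 224 ± 39.1 CPM in mutants and 268 ± 16.7 CPM in wildtype, which did not pass (log2 fold change -0.26, interval -0.50 to -0.01, edgeR adjusted p = 0.134) except when mutant 2 was left out (adjusted p = 0.0474). The difference was -0.24 within the libraries rich in Gm42418 (5 mutants and wildtype 1). It was -0.001 within the others (mutant 2 and wildtype 2 and 3).

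**Figure D4:**
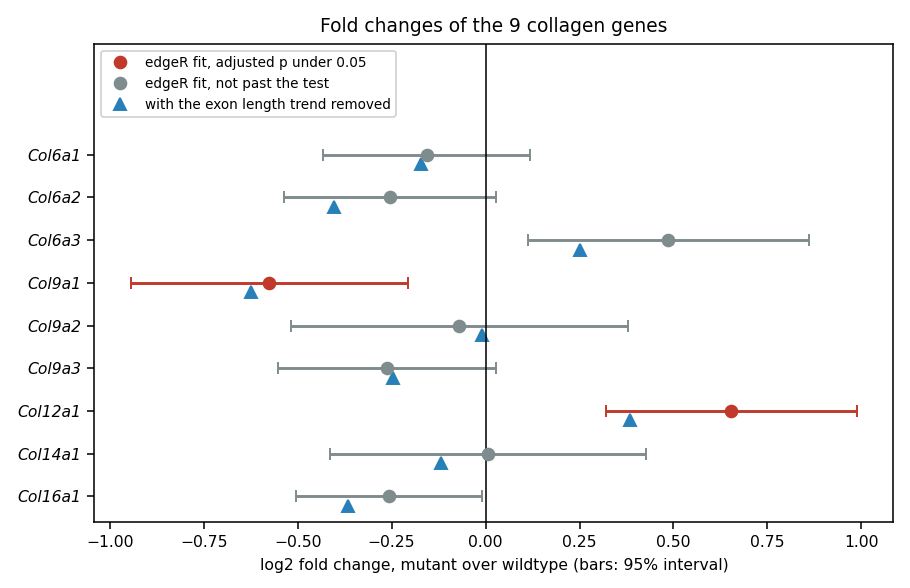
Log2 fold change of each member, mutant over wildtype, with its 95% interval (edgeR), and, as triangles, the value with the exon length trend removed; red circles passed the test and grey circles did not. Col12a1 lies above 0 and Col9a1 below 0 in both, though Col9a1 was not called with the trend removed, the value of Col6a3 moves from 0.49 to 0.25 with the trend removed, and Col6a2 moves further below 0.

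Across libraries, sets of members varied together. Deviations of log2 CPM from the group mean, over 9 libraries, had a Pearson r of 0.985 between Col6a1 and Col6a2, against 0.727 between Col6a1 and Col6a3. Col14a1 went with collagen VI, at 0.877 with Col6a1 and 0.891 with Col6a3, and Col12a1 had 0.768 with Col6a3. The collagen IX genes went with Col16a1, at 0.881 for Col9a1, 0.796 for Col9a2 and 0.842 for Col9a3, and Col9a1 had 0.820 with Col9a2 and 0.734 with Col9a3. The points share libraries, depth and scaling, and 9 of them describe these libraries only.

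**Figure D5:**
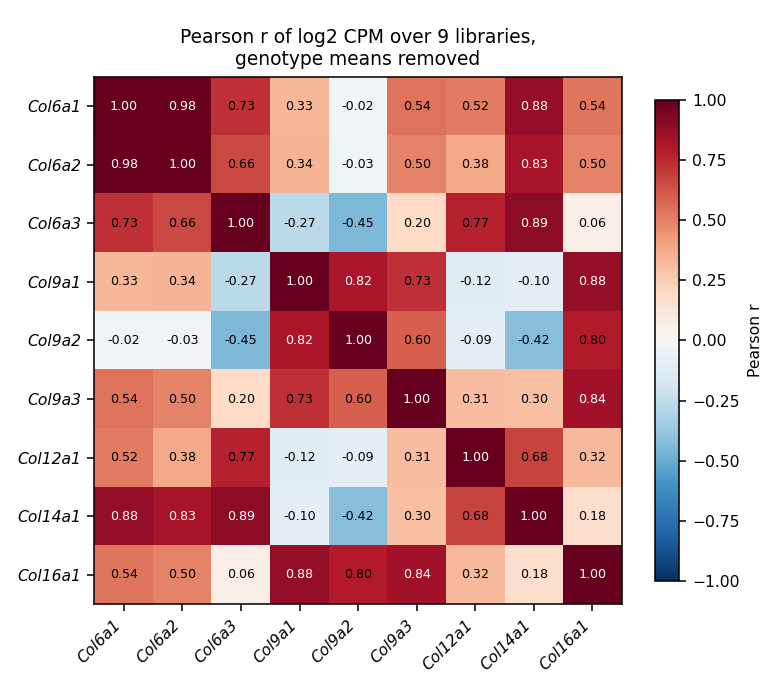
Pearson r between members over 9 libraries, after subtracting each genotype's mean log2 CPM; the colour runs from negative to positive r. Collagen VI genes and Col14a1 form one block of high r, and the collagen IX genes and Col16a1 another.

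Genes of the fibrils and partners around these collagens came from lists drawn up for this tissue, with earlier results of these data known. Of 11 tested fibril-forming collagens, 0 were called higher and 2 lower by edgeR, with a median log2 fold change of -0.02. DESeq2 also called 0 higher, and 1 was higher at an unadjusted p under 0.05 (edgeR). Col1a1 averaged 13874 ± 3490 CPM in mutants and 13371 ± 1825 CPM in wildtype (edgeR adjusted p = 0.875). The genes called lower were those of minor fibril-forming collagens. Col24a1 averaged 31.7 ± 5.48 CPM in mutants and 44.9 ± 5.05 CPM in wildtype (log2 fold change -0.50, edgeR adjusted p = 0.0141). Col27a1 averaged 16.9 ± 4.01 CPM in mutants and 27.6 ± 2.61 CPM in wildtype (log2 fold change -0.71, edgeR adjusted p = 0.00872). Col24a1 lost its call without wildtype 1 or 2, and Col27a1 without wildtype 1.

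Of 18 partners and receptors of collagen VI, 7 were called higher and 1 lower, with a median log2 fold change of 0.24, where 9.70% of all tested genes were called higher and 9.47% lower, with a median of 0.00. The same shares stand behind the counts of the other lists. The mutated gene and its partner Col4a2 are among the 7. Because the lists were drawn up with earlier results known, no excess over these shares is read from them. Col4a1, the mutated gene, averaged 1030 ± 82.7 CPM in mutants and 625.5 ± 92.7 CPM in wildtype, a log2 fold change of 0.72 (edgeR adjusted p = 0.000876), and Col4a2 had 0.67 (adjusted p = 0.00166). Hspg2, for the basement membrane proteoglycan perlecan, averaged 485 ± 99.7 CPM in mutants and 243 ± 39.9 CPM in wildtype, and Fn1, for fibronectin, 937 ± 173 CPM in mutants and 494 ± 91.0 CPM in wildtype. The others called higher were Cspg4, the NG2 proteoglycan that binds collagen VI on cells, Itga1, an integrin collagen receptor, and Tgfbi, a corneal protein bound to collagen VI. These 3 genes, Dcn and Antxr1 were chosen after their values were seen, and Itga1 lost its call without wildtype 1 or 3. With the length trend removed Itga1 had a log2 fold change of 0.38 in place of 0.66 and was not called (edgeR adjusted p = 0.0676), which leaves 6 called higher. Dcn, for decorin, which binds collagens VI, XII and XIV, was called lower at 2343 ± 315 CPM in mutants and 3163 ± 335 CPM in wildtype, a call that was lost without wildtype 1 or 2. The anthrax toxin receptor gene Antxr1, whose product binds collagen VI, had 618 ± 49.7 CPM in mutants and 592 ± 74.2 CPM in wildtype and did not pass (edgeR adjusted p = 0.682).

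Of 12 tested partners of fibril-associated collagens and matrilins, 1 was called higher and 3 lower, with a median log2 fold change of -0.14. Tnc, for tenascin-C, was 1.62-fold higher, at 43.3 ± 7.50 CPM in mutants and 26.7 ± 2.85 CPM in wildtype (edgeR adjusted p = 0.00388). Matn4, a matrilin, was 1.66-fold lower, at 170.3 ± 35.9 CPM in mutants and 282 ± 30.7 CPM in wildtype (adjusted p = 0.00479). Lum, for lumican, which regulates fibril width in the cornea, was 1.46-fold lower (adjusted p = 0.00723) and lost its call without wildtype 1, and Dcn, given above, was the other.

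Marker sums were read for cell types that could make these collagens. The 12 keratocyte and stromal fibroblast markers summed to 6329 to 8510 CPM in mutants and 8674 to 11278 CPM in wildtype, without overlap, with 1 called higher and 5 lower. Kera, for keratocan, and Tkt were among those lower, and Kera was not called without wildtype 1. In all 1 marker of this list was called lower without wildtype 1 and 3 without wildtype 2. Corneal endothelium and trabecular markers, 11 in all, summed to 2896 to 3527 CPM in mutants and 2674 to 2916 CPM in wildtype, with 4 called higher by edgeR, or 1 with the length trend removed, with total counts as the scaling or without wildtype 1 or 3. Tendon markers, 8 in all, summed to 1325 to 2063 CPM in mutants and 2027 to 2937 CPM in wildtype, most of it Kera, which also stands in the keratocyte list, at 995 ± 237 CPM in mutants and 1831 ± 472 CPM in wildtype. Scx, a transcription factor gene of tendon cells, had 19.2 ± 1.74 CPM in mutants and 19.9 ± 1.27 CPM in wildtype. Mkx, another such gene, chosen after its values were seen, had 8.52 ± 1.47 CPM in mutants and 11.55 ± 1.61 CPM in wildtype. Its mutant libraries all lay below the wildtype libraries, as for 11.2% of all tested genes, but it did not pass (edgeR adjusted p = 0.0687). By edgeR 2 tendon markers were called lower, Tnmd and Kera, and 0 without wildtype 1 (edgeR; 3 at an unadjusted p under 0.05 and 3 by DESeq2 with all libraries). Pericyte and smooth muscle markers, 10 in all, summed to 1480 to 1633 CPM in mutants and 1699 to 1812 CPM in wildtype, again without overlap, and the genes were called in both directions. The pericyte genes Pdgfrb, Cspg4, Abcc9 and Notch3 were called higher, with Abcc9 at 43.6 ± 7.01 CPM in mutants and 18.5 ± 2.82 CPM in wildtype. The pericyte genes Rgs5 (log2 fold change -0.17, adjusted p = 0.384) and Kcnj8 (0.15, adjusted p = 0.292, both edgeR) were not called. The smooth muscle genes Acta2, Myh11, Tagln and Cnn1 were called lower, with Acta2, the most abundant, at 554 ± 71.6 CPM in mutants and 696 ± 5.61 CPM in wildtype. Of the 8 called, those other than Abcc9, Cspg4 and Cnn1 were chosen after their values were seen, as were Rgs5 and Kcnj8. In this list 1 or 2 were called lower without wildtype 1, 2 or 3 or mutant 3, and 3 higher without wildtype 1. Skeletal muscle markers stayed at 12.6 to 21.1 CPM in mutants and 11.9 to 17.5 CPM in wildtype, with Tnnc2 at 0, and corneal epithelium markers at 7810 to 8987 CPM in mutants and 7852 to 8929 CPM in wildtype. The part of these cell types in the differences of Col12a1 and of the collagen VI ratios was not tested.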

How the data were processed

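The authors deposited raw read counts per Ensembl gene for 9 libraries, as whole numbers without normalization. The submitters' processing notes name GRCm38 (mm10) as the build, and HTSeq 0.6.1, STAR 2.6.1 and DESeq2 1.6.3 as tools, without saying what each did. No source used here gives the annotation release or the strand setting, so reads of overlapping or antisense genes cannot be assigned with certainty. Symbols, coordinates and lengths of exons were looked up in GENCODE's annotation of that build, where 34490 of 35275 identifiers were found. Groups follow the labelled genotype. Within a group libraries differed by more than sampling noise, so each counted as 1 replicate.

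Counts were tested with edgeR 4.0.16 (R 4.3.3): TMM scaling, filterByExpr with the genotypes as groups, a quasi-likelihood fit (robust) on genotype alone, and Benjamini-Hochberg adjustment at 0.05 over 15825 genes. Ratios used log2 CPM with a prior count of 2 and the exact permutation test described with them. Alternatives were other scalings, DESeq2 1.42.0, limma-voom (limma 3.58.1), other filters and thresholds, a replicate block, the Gm42418 split (at 1% of counts) as a covariate, removal of a length trend (mgcv 1.9.3), and each library left out. The steps were checked on simulated counts, where 59% of 100 planted 1.5-fold changes and 82% of 100 planted 2-fold changes were called. Of the calls, 2.76% were of unchanged genes. A gene that did not pass may therefore still differ. The simulated counts held no length trend and no Gm42418 split, so the 2.76% need not hold for the real calls.

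The members, lists and tests were chosen with earlier results of these data known. Named genes were the members, Col4a1, Col4a2, genes of the ratios, up to 3 called genes of lowest p per list, and the 3 genes most alike in pattern to each collagen family; exceptions are marked. Some genes, such as Dcn, Lum and Kera, stand in more than 1 list.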

Additional observations from a re-analysis of the deposited data

Results flagged for a closer look

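Over the 6 mutant libraries, mutant 4 stood apart for both ratios with Col6a3 on top. Its Col6a3/Col6a1 ratio was 0.989, where the other mutants ran from 0.59 upwards with a group median of 0.684. Its Col6a3/Col6a2 ratio was 0.968, where the group median was 0.631. Both were picked out because the gap to the nearest mutant library was large for the range of the group. Such a gap was looked for in 19 sets of mutant values, 9 genes and 10 ratios, and chance marks about 1 in 20. The ratios share Col6a3, so they are not independent. Without mutant 4 the log2 differences were 0.51 and 0.60, against 0.61 and 0.70 with it.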

How the results depend on the processing

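Over all genes, 2359 were called higher and 2335 lower by limma-voom, 814 and 671 with a replicate block, 938 and 939 with the Gm42418 split as a covariate, 520 and 512 at an adjusted p under 0.01, and 943 were called higher with the length trend removed. Leaving out each library gave 303 to 1688 higher and 235 to 1577 lower, the lowest without wildtype 1.

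Of the members, 2 were called higher by limma-voom, with the replicate block or at an adjusted p under 0.10, and 0 at an adjusted p under 0.01. By edgeR 0 were called lower with no filter, with the Gm42418 covariate or at an adjusted p under 0.01 (with all libraries and the usual filter, Col9a1 alone at 0.05). Leaving out each library gave 0 to 2 higher and 0 to 2 lower.

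The log2 fold change of Col6a3, 0.49, passed by limma-voom (0.44), with the block (0.48) and at 0.10 (0.486), with a range of 0.35 to 0.57 over libraries left out. Mutants 4, 5 and 6 have no wildtype library of the same number. With the block, the genotype difference thus rests on the libraries numbered 1 to 3. Col9a1 did not pass with no filter (-0.56), the Gm42418 covariate (-0.48), the length trend removed (-0.62) or at 0.01 (-0.575), with a range of -0.67 to -0.49. Col12a1 did not pass at 0.01 (0.654), with a range of 0.54 to 0.72. Col6a2 passed with the length trend removed (-0.40). Values near 0 turned sign. Col9a2 was 0.17 with the Gm42418 covariate and ran from -0.20 to 0.093 over libraries left out. Col14a1 was -0.026 with the upper quartile, -0.013 with total counts and -0.12 with the length trend removed, and ran from -0.13 to 0.17. Col16a1 ran from -0.32 to -0.21.

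Replicate numbers of the labels did not pair the libraries: same-numbered libraries had deviations correlated at 0.0947, 0.0258 and -0.104. With a replicate block of 3 pairs the ratio differences were -0.065 for Col6a2/Col6a1, 0.55 for Col6a3/Col6a1, 0.61 for Col6a3/Col6a2, 0.47 for Col12a1/Col14a1, 0.475 for Col12a1/Col1a1 and 0.0032 for Col14a1/Col1a1, and 3 pairs cannot pass (adjusted p = 0.312, exact). With the length trend removed Col9a2/Col9a1 passed (0.62) and Col12a1/Col14a1 did not (0.51). Over libraries left out the differences ran from -0.11 to -0.082 for Col6a2/Col6a1, 0.51 to 0.66 for Col6a3/Col6a1, 0.60 to 0.76 for Col6a3/Col6a2, 0.53 to 0.85 for Col12a1/Col14a1, 0.54 to 0.72 for Col12a1/Col1a1, -0.13 to 0.019 for Col14a1/Col1a1 and -1.14 to -0.63 for Col9a1/Col2a1. The cause of these shifts was not tested. Without 1 library a ratio has fewer splits and a larger smallest p.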

Other observations

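Other collagens related to these families were low. Summed over libraries, Col6a6 had 288 counts in mutants and 83 in wildtype, Col22a1 170 in mutants and 32 in wildtype, and Col20a1 2257 in mutants and 789 in wildtype, and by edgeR and DESeq2 0 of these 3 tested genes were called in either direction, with 0 at an unadjusted p under 0.05 (edgeR). Col6a4 had 43 counts in mutants and 1 in wildtype, Col6a5 4 in mutants and 1 in wildtype, and Col19a1 15 in mutants and 19 in wildtype, all too low to test. These sums cover 6 mutant and 3 wildtype libraries.

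Among 9734 genes of at least 10 CPM, the patterns most like each family over 9 libraries, by Pearson r of log2 CPM across both genotypes, were those of Col1a1 (0.936), Ccn1 (0.927) and Col5a1 (0.905) for the mean of the collagen VI genes. For the mean of the collagen IX genes they were Ctsf (0.971), Porcn (0.959) and Lrrc45 (0.955), and for Col12a1 Il6st (0.991), Hmbox1 (0.986) and Foxn3 (0.985). For Col14a1 they were Adamts12 (0.943), Kif26a (0.934) and Hacd4 (0.902), and for Col16a1 Cpxm2 (0.93), Aass (0.918) and Irx1 (0.911). These are the top of many genes ranked on 9 libraries that share depth and scaling, and describe these libraries only.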
